A study of Mus musculus with 4 samples.

Results

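The complement and coagulation factors made by the liver were followed on 4 microarrays of whole liver from male mice. The set holds 37 genes of the 23462 that the arrays' probes name, 17 of complement and 20 of coagulation, and was taken as every non-control probe whose transcript identifier belongs to one of these genes. They are covered by 49 of 33767 named probes, with 1 probe for 27 genes and several for 10. Each array measured 1 group, and there is no replication: naturally aged mice (called control here), an aged type 2 diabetes model (diabetic), the same model given metformin (metformin), and the same model given metformin together with astragalus polysaccharide (combination). Every group was thus aged, and both treated groups were diabetic. Metformin is a biguanide that lowers blood glucose, and the polysaccharide comes from the root of Astragalus. The labels carry 60 d without saying from what it counts. How diabetes was induced, the strain, the ages and doses, and any pooling of mice on an array are not given in the labels.

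Complement is a cascade of plasma proteins that tags and lyses microbes. Lectins or antibodies start it, convertases cleave C3 and then C5, and the terminal components assemble into a pore, the membrane attack complex. Coagulation is a second cascade of plasma proteases that ends in thrombin, which turns fibrinogen into fibrin, while plasmin dissolves the clot. Hepatocytes make most of the circulating proteins of both cascades, and they have serine proteases, serpin inhibitors and acute phase control in common. C/EBP proteins, which also drive the acute phase response, are known regulators of several of these genes.

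The promoters of 3 factors that were at least 2-fold lower on the diabetic than on the control array and of Mbl2, whose difference there was nearest to 0, are shown so that their sequences can be set beside the values below. They come from RefSeq on GRCm38.p6, in which 29 of the 37 genes had an entry. Each runs over 300 bases around the start site, 50 of them after it, on the plus strand: C6 at chr15:4726960-4727259, Fga at chr3:83025903-83026202, C8b at chr4:104766067-104766366 and Mbl2 at chr19:30232678-30232977. Capitals mark a C/EBP core, TTGCNNAA or its reverse complement, where N is any base.
C6: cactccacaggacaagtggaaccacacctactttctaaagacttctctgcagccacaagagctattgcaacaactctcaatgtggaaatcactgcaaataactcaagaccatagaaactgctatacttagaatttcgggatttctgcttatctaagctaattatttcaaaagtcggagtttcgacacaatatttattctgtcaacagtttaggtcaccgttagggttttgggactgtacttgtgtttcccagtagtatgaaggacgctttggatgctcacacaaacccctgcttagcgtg
Fga: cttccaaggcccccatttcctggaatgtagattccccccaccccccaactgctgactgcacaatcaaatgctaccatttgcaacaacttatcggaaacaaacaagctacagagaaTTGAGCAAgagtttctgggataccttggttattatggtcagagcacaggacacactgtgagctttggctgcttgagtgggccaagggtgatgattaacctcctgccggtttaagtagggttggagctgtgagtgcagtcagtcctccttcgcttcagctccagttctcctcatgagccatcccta
C8b: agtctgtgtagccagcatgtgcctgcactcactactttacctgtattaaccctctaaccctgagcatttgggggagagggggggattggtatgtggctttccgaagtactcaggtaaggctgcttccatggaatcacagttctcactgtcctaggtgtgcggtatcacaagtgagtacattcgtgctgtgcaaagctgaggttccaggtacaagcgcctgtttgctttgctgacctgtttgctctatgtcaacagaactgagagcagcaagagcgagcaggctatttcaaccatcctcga
Mbl2: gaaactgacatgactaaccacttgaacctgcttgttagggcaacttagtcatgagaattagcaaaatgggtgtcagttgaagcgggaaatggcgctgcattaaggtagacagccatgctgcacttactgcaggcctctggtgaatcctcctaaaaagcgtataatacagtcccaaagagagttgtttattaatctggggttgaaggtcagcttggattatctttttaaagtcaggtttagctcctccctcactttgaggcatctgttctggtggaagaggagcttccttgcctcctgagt
Fga has 1 match, starting at -135 from the start site, and the windows of C6, C8b and Mbl2 have none. Searched on both strands, with overlaps between motifs allowed, the core stood in the promoters of 9 of 29 members: C3 and C9 of 12 complement genes, and Cpb2, F9, F11, Fga, Fgb, Klkb1 and Serpinc1 of 17 coagulation genes. It stood in 10.8% of all 32851 promoters of this length. TATAAA was found in 4 of 29 (C3, Hc, Klkb1 and Vtn), against 13.6%. These are matches of letters, not measured binding sites.

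A level is given here as the log2 of a probe's processed intensity over the 75th percentile of its array, so that 0 is the 75th percentile, and a difference is one level minus another. A level of 1 probe is never set against that of another. Of the 49 probes, 48 were well above background on all 4 arrays, and the other, a second Masp1 probe, was on none. The image software marked 17 of the 196 spots as outliers, on 11 probes. Such spots are left out of a gene's difference, which left C8a, F11 and F13b without one between diabetic and control. The spread of repeated spots gave a technical SD of 0.08 to 0.09 for a difference between a pair of arrays, which leaves out the spread between mice, RNA preparations and hybridizations. The arrays correlated at 0.950 to 0.965 over 24363 probes, and outliers made up 6.31% to 14.5% of spots above the array's 75th percentile. Bright genes as a class also differed: the median over genes at a level of 3 or more, where most members lie, was -0.25 for diabetic minus control, -0.20 for metformin minus diabetic, 0.07 for combination minus diabetic and 0.27 for combination minus metformin. Over all measured genes these medians were -0.09, -0.07, 0.03 and 0.05. All 12 hepatocyte markers were above background on all 4 arrays, with a summed level of 8.41, 8.11, 7.72 and 8.21 in the order control, diabetic, metformin, combination that all sets of 4 values keep below. In bulk liver, fewer cells of a type and less RNA per cell cannot be told apart.

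Across the 4 arrays both cascades had their highest level on the control array. This held for 22 of 23 complement probes and 25 of 25 coagulation probes above background, where 36.1% of all 28902 such probes, and 77.9% of those at a level of 3 or more, were highest there. The exception was 1 of 3 Masp2 probes, which was highest on the combination array. The share depended on the scale: by the authors' deposited values, 34 of the 48 probes were highest on the control array, against 25.1% of probes at a level of 3 or more. The lowest level was on the metformin array for 34 of the 48 probes, against 42.0% of all such probes and 80.6% of those at a level of 3 or more. By the authors' deposited values it was there for 11 of the 48 and on the combination array for 25. On those values 34.9% of all 28902 such probes were lowest on metformin, and 5941 of them on combination. At a level of 3 or more these were 26.8% and 949 of 3733.

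**Figure D1:**
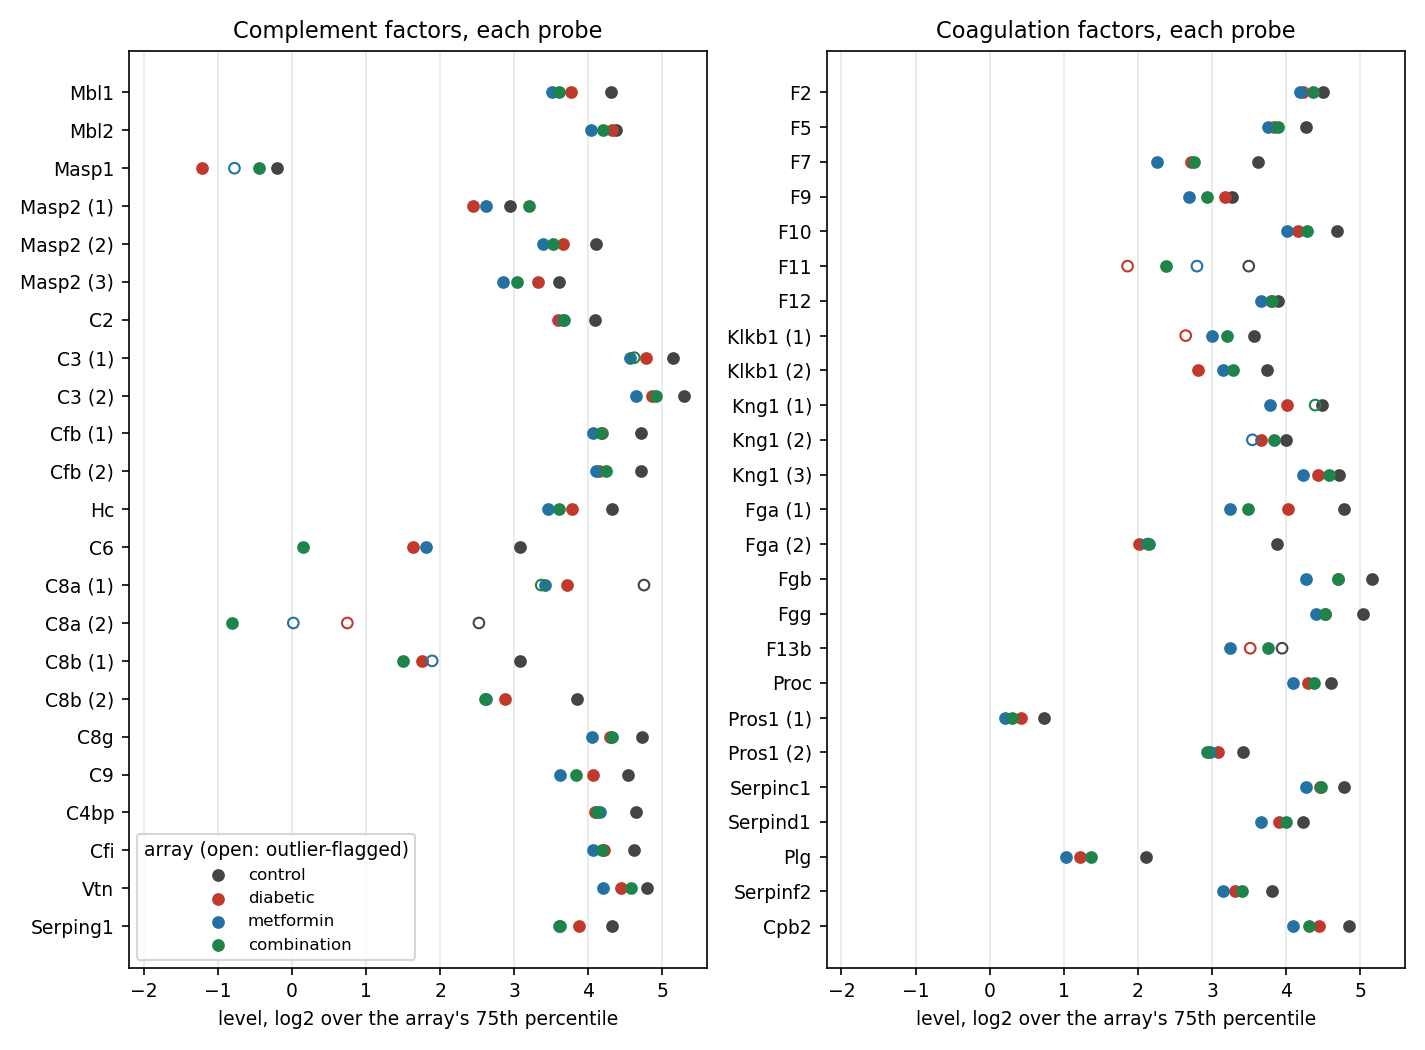
Level of every member probe above background on each of the 4 arrays (x axis, log2 over the array's 75th percentile), with complement on the left and coagulation on the right. Open points are outlier-marked spots; of the 48 probes 47 have the control array furthest to the right, and the wide gaps are those of C6, C8a, C8b, F11 and Fga.

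The first comparison asks how these factors differed between diabetic and aged control liver. All 34 measured members were lower on the diabetic array. So were 57.8% of all 13475 measured genes and 87.7% of the 1715 at a level of 3 or more. With quantile normalization 27 of the 34 were lower, where the median over all genes was 0.001. The 4 members at least 2-fold lower were C6 (2.70-fold), Fga (2.47-fold), C8b (2.21-fold) and Masp1 (2.02-fold), against 5.42% of all genes, and none was 2-fold higher, against 6.35%. Just short of that fold was Klkb1 at -0.93. The median was -0.48 over 16 complement genes and -0.42 over 18 coagulation genes. Against genes at the same level, taken as a running median along the level, complement lay at -0.22, with 15 of 16 genes below it, and coagulation at -0.13, with 13 of 18 below.

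Among the factors that start complement, the 7 differences ran from -1.01 to -0.05 with a median of -0.49. Masp1, a protease that circulates with mannose-binding lectin, had levels of -0.20, -1.21, -0.77 and -0.44, of which the metformin value is an outlier-marked spot. Its diabetic level was the lowest of the 4, at -1.01 against control, and its combination level was 0.78 above diabetic. Mbl1 and Mbl2 are the mannose-binding lectins that recognise microbial sugars. Mbl2 had levels of 4.37, 4.32, 4.04 and 4.20, a diabetic minus control difference of -0.05 that is within the technical SD, and one of up to 0.32 under the other scalings tried. Mbl1 stood at -0.55. Masp2, which cleaves C4 and C2, differed by -0.41 over 3 probes. Its probe to a separate transcript had levels of 2.94, 2.45, 2.61 and 3.20, and was the member probe with its highest level on the combination array, while the other 2 probes were highest on control. C3, the central component, differed by -0.40, Cfb, the protease of the alternative convertase, by -0.54, and C2, its classical pathway counterpart and genomic neighbour, by -0.49.

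The terminal pathway held the wider differences. C6, which joins C5b as the pore forms, had levels of 3.07 on control, 1.64 on diabetic, 1.81 on metformin and 0.16 on combination. The diabetic and metformin arrays lay close together, and the combination array lay far below both. C8b, the beta chain of C8, had levels of 3.08, 1.76, 1.89 and 1.50 on 1 probe, with the metformin spot outlier-marked, and 3.85, 2.88, 2.62 and 2.61 on the other. Both C8b probes placed the other 3 arrays well below control, by -1.32 and -0.97 for diabetic. C8a, the alpha chain and the neighbouring gene of C8b, has no unmarked control spot. With outlier spots kept, its levels were 4.75, 3.71, 3.42 and 3.36 on the brighter probe and 2.52, 0.75, 0.02 and -0.80 on a probe to another transcript, and its diabetic minus control difference was -1.41. C8g, the gamma chain, stood at -0.42, C9, which polymerises in the pore, at -0.47 and Hc, the mouse C5 gene, at -0.54. Of the 4 inhibitors, C4bp, a cofactor in C4b cleavage, stood at -0.56, Serping1, the C1 inhibitor, at -0.45, Cfi, which cleaves C3b and C4b, at -0.41 and Vtn, which binds the forming pore, at -0.35. They spanned a narrower range than the terminal components.

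The fibrinogen chains, encoded by 3 adjacent genes, differed unequally. Fga, the alpha chain, had levels of 4.78, 4.03, 3.24 and 3.48 on its brighter probe and 3.87, 2.02, 2.13 and 2.15 on the other, whose metformin spot is outlier-marked. Both Fga probes are assigned to the same transcript and were highest on control, but their diabetic minus control differences were -0.76 and -1.85. On the brighter probe alone Fga was not 2-fold lower. Fgb, the beta chain, had levels of 5.16, 4.70, 4.26 and 4.70, a difference of -0.46, and Fgg, the gamma chain, stood at -0.51. F13b, the carrier subunit of the enzyme that crosslinks fibrin, had levels of 3.95, 3.51, 3.24 and 3.75, with the control and diabetic spots outlier-marked.

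Among the proteases of coagulation, F7, which starts the extrinsic pathway with tissue factor, had levels of 3.61, 2.72, 2.26 and 2.76. It was lower by -0.89 on the diabetic array and lowest on the metformin array. F9, of the intrinsic pathway, had levels of 3.27, 3.17, 2.69 and 2.94, so that control and diabetic differed by -0.09 only. F10, the neighbouring gene of F7 and the protease that activates prothrombin, stood at -0.52, its cofactor F5 at -0.43 and prothrombin, F2, at -0.27. F11 had levels of 3.50, 1.86, 2.80 and 2.38 on its 1 probe, and only the combination spot is unmarked, so it has no difference without outlier spots and one of -1.63 with them. Klkb1, plasma prekallikrein and the neighbour of F11, had levels of 3.74, 2.81, 3.15 and 3.28 on its unmarked probe. Both genes had their lowest level on the diabetic array. F12, which prekallikrein's product activates, had levels of 3.88, 3.79, 3.66 and 3.81 and a difference of -0.09, and Kng1, the kininogen that carries prekallikrein, differed by -0.36 over 3 probes.

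The anticoagulants lay close together: Pros1 (protein S) at -0.32, Proc (protein C) at -0.31, and the thrombin inhibitors Serpinc1 (antithrombin) and Serpind1 (heparin cofactor II) at -0.33 each. Plg, the precursor of plasmin, had levels of 2.10, 1.22, 1.03 and 1.37, which places the other 3 arrays below control and the diabetic array at -0.88. The fibrinolysis inhibitors Serpinf2 (antiplasmin) and Cpb2 (a carboxypeptidase that removes plasminogen binding sites) stood at -0.49 and -0.41. The complement median minus that of coagulation was thus -0.06, a gap for which there is no replicate error, while genes within either cascade spread by more than 1 log2 unit. The acute phase genes had a median of -0.39 over 9 genes and the hepatocyte markers -0.20 over 9. Marker sums of other cells also differed between control and diabetic, Kupffer cells at 5.98 and 5.33 with 9 of 9 genes above background on both arrays, and acinar pancreas at 6.61 and 3.56 with 9 of 10 (Prss1 was below it). Their part in the members' differences was not tested.

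**Figure D2:**
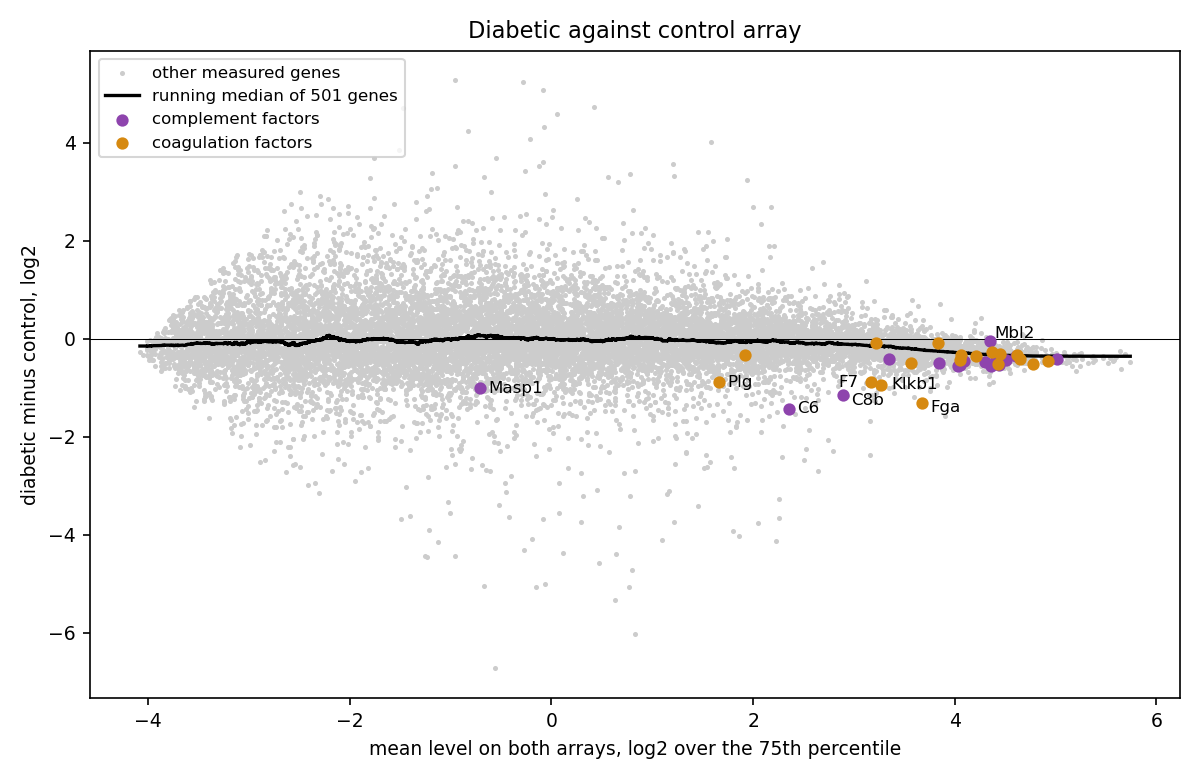
Diabetic minus control difference in log2 (y axis) against the mean level on both arrays (x axis, log2 over the 75th percentile) for every measured gene, with complement and coagulation factors in colour and the running median along the level as a line. The running median bends below 0 at high levels, and C6, C8b, Fga, F7, Klkb1, Plg and Masp1 lie further below it than the other members.

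The second comparison asks how the factors differed in diabetic liver with metformin. No member of 34 was 2-fold apart, against 12.7% of all 13900 genes, of which 9.46% were higher and 3.24% lower by that fold. On the metformin array 30 of the 34 were lower, against 56.3% of all genes and 88.0% of those at a level of 3 or more, with medians of -0.24 for complement and -0.19 for coagulation. This direction rested on the scale: 21 were lower with quantile normalization and 5 with a scale set by spike-in probes. On those scales the median over all genes was -0.03 and 0.30. Against genes at the same level the medians of complement and coagulation were -0.03 and -0.00. The lowest members were Fga (-0.79), F9 (-0.48) and F7 (-0.46), with C9 and Hc of the terminal pathway at -0.46 and -0.33. Fga rests here on its brighter probe, and with the outlier-marked spot of the other probe kept it stood at -0.34. Of the 4 members higher on the metformin array, Klkb1 stood at 0.34 (0.19 to 0.72 over all the settings tried) and C6 at 0.17 (0.017 to 0.54), and C4bp and C2 at 0.08 and 0.05 lay within the technical SD. C4bp had levels of 4.64, 4.08, 4.16 and 4.11, so that the 3 diabetic groups lay together below control.

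The third comparison asks the same of metformin with astragalus polysaccharide. C6 was 2.80-fold lower on the combination than on the diabetic array and was the only 1 of 34 members 2-fold apart, against 9.73% of all 14108 genes, of which 5.85% were lower and 3.88% higher by that fold. The next in size was Masp1, at 0.78. With outlier spots kept C8a stood at -0.95 and F11 at 0.52, and C6 was still the only member 2-fold apart. The 3 Masp2 probes ran from -0.28 to 0.75. Most other measured members lay near the diabetic level. In all, 20 members were higher and 14 lower, where 47% of all genes were lower. Of the 34 members, 24 differed by less than 2 technical SDs. The share of all genes within that span is not given here, so this count does not set the members apart. The medians were 0.00 for complement and 0.05 for coagulation. With quantile normalization 26 of the 34 were lower, where the median over all genes was -0.02. Next to C6 at the low end were C8b (-0.27), whose 2 probes gave -0.26 and -0.27, and Serping1 (-0.25), with levels of 4.31, 3.87, 3.60 and 3.62. Of the contact system, Klkb1 stood at 0.48 and Kng1 at 0.16, among the 3 highest members, and F12 at 0.02. Kng1 had levels of 4.71, 4.43, 4.23 and 4.57 on its probe with no marked spot.

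**Figure D3:**
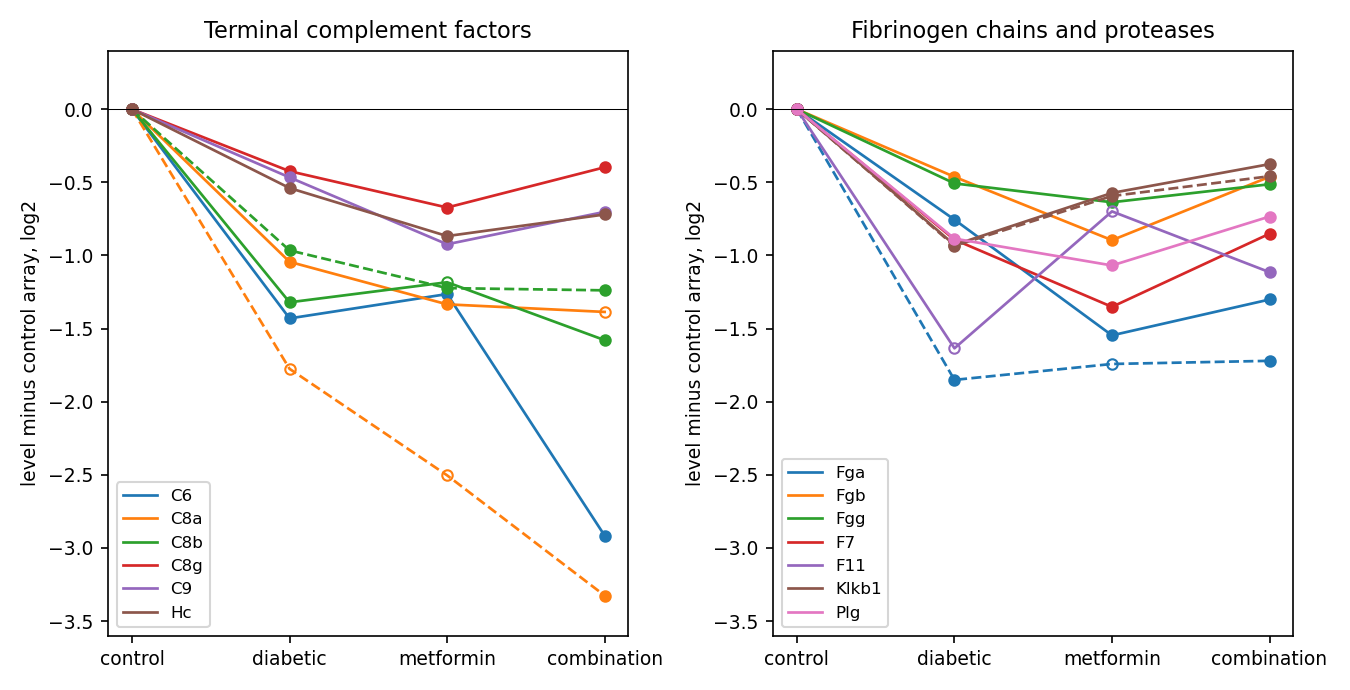
Level minus the control array's level in log2 (y axis) on each array (x axis) for the terminal complement factors on the left and for the fibrinogen chains and proteases of coagulation on the right, 1 line a probe, dashed for a second probe and with open points where a spot is outlier-marked. C6 drops to -2.92 on the combination array, and the 2 Fga probes part on the diabetic array at -0.76 and -1.85.

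The treated arrays were then set against each other, which addresses what was seen with the polysaccharide beside metformin. All 19 measured coagulation factors and 12 of 15 complement factors were higher on the combination array, with medians of 0.25 and 0.13. With outlier spots kept 19 of 20 and 13 of 17 were higher, and F11 (-0.42) and C8a (-0.44) were among those lower. Among all 14363 genes 45.9% were lower, and among those at a level of 3 or more 11.1% were lower. The direction again depended on the scale, since 24 of the 34 members were lower with quantile normalization and 30 with spike-in scaling. The median over all genes was -0.02 and -0.32 on those scales. C6 was 3.14-fold lower, the only member of 34 at least 2-fold apart, against 9.4% of all genes lower by that fold and 2.18% higher. The highest members were F13b (0.51), F7 (0.50) and Fgb (0.43). C4bp at -0.05 and C8b at -0.02 were the others below 0, both within the technical SD. C8b rests here on 1 of its 2 probes, and with the outlier-marked spot of the other kept it stood at -0.21. The complement median minus that of coagulation was -0.12, or -0.098 with outlier spots kept, and against genes at the same level complement lay at -0.14, with 13 of 15 genes below it, and coagulation at 0.01.

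**Figure D4:**
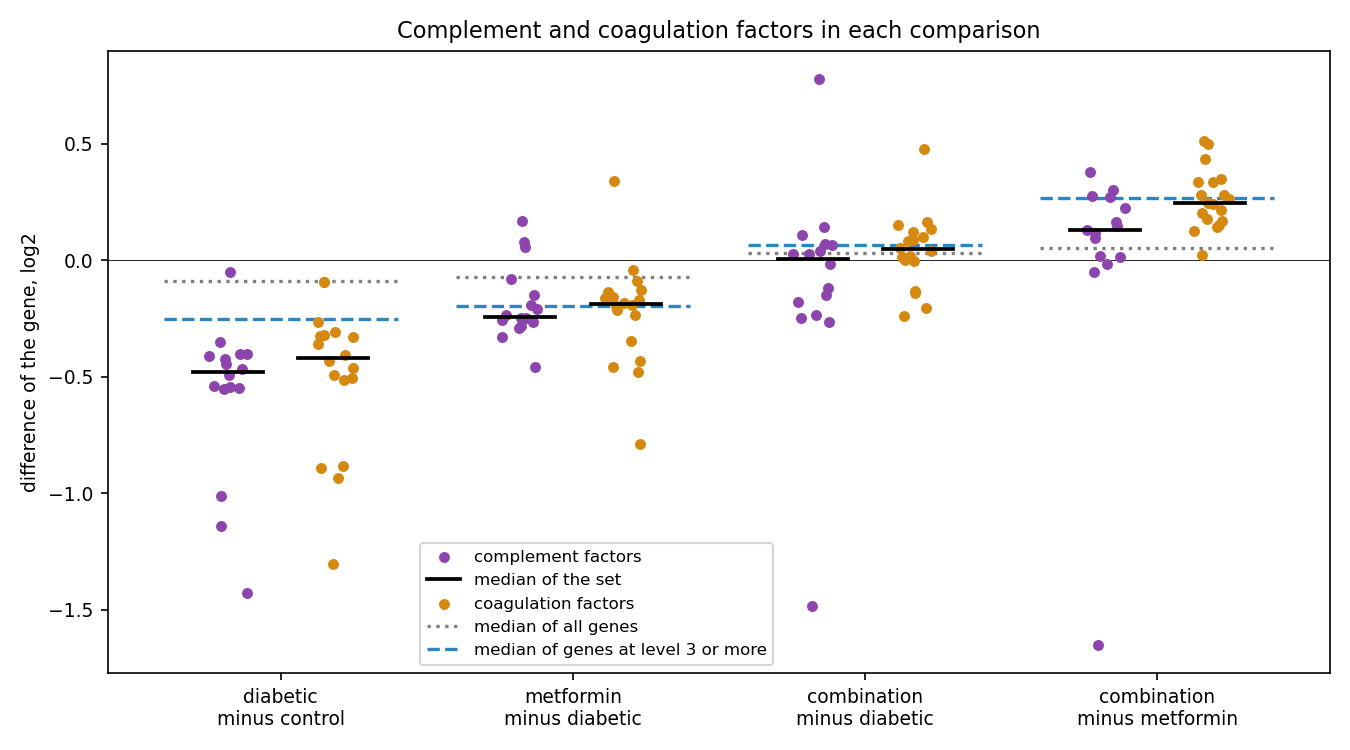
Difference in log2 (y axis) of each measured complement and coagulation factor in the 4 comparisons (x axis), with the median of each set, of all genes and of genes at a level of 3 or more as lines. Coagulation lies near the median of bright genes except for diabetic minus control, where both sets lie below it at -0.48 and -0.42, and C6 is the lowest member in 3 of the 4 comparisons.

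Set directly against control, both treated arrays had every measured member lower on the scale used here. For metformin this was 33 of 33, against 57.9% of all 13506 genes and 94.7% of those at a level of 3 or more, with medians of -0.62 for complement and -0.59 for coagulation. At least 2-fold lower were Fga (-1.55), F7 (-1.35), C6 (-1.26), C8b (-1.22) and Plg (-1.07), where 4.92% of all genes were lower by that fold and 8.88%, but no member, higher. For the combination it was 34 of 34, against 55.4% of all 13845 genes and 81.2% of those at a level of 3 or more, with medians of -0.47 and -0.40. At least 2-fold lower were C6 (-2.92, 7.55-fold), Fga (-1.51) and C8b (-1.41), where 5.76% of all genes were, and 4.79% of genes but no member were 2-fold higher. By the authors' deposited values 26 of the 33 and 29 of the 34 were lower, and F2, F12 and Mbl2 were higher than control on both treated arrays. On those values Plg (13.16 on control, 12.22 on metformin) was not 2-fold lower on metformin. Nor was C8b on its probe with no marked spot (14.75 and 13.91). These comparisons share arrays with one another, so their values are not independent. C6 rests on 1 probe with no outlier-marked spot on any array. Over 14 ways of scaling and filtering its difference ran from -1.45 to -1.21 for diabetic minus control, from -1.71 to -1.38 for combination minus diabetic and from -2.02 to -1.51 for combination minus metformin. The choices of probes and of outlier spots cannot change a gene with 1 such probe above background on every array. These ranges thus come from the scaling, the background correction and the running median.

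Genes of the same cascades outside the set gave a mixed picture. Of 21 other complement genes 18 were measured between diabetic and control, with 16 lower, a median of -0.45 and 2 at least 2-fold lower, C4a and Cd55. Of all measured genes 57.8% were lower, and 5.42% by at least 2-fold. C4a, with levels of 2.77, 1.61, 1.09 and 0.62, the metformin spot being outlier-marked, is uncertain because its near-identical copy C4b can share its probe's signal. Cd55, a surface inhibitor of convertases, had levels of -0.21, -1.21, -0.41 and -0.73. On the metformin array 10 of 17 were higher than on the diabetic array, with a median of 0.50, and Cfd (2.32), the protease that activates factor B, was at least 2-fold higher, as was the lectin gene Colec10, with levels of 1.64 on diabetic and 2.64 on metformin. Of the 17, 7 were lower, as were 56.3% of all genes. By at least 2-fold, 9.46% of all genes were higher. The C1q chain genes C1qa, C1qb and C1qc, made mainly by macrophages, had C1qa levels of 3.82, 3.19, 3.68 and 3.12, C1qb levels of 3.35, 2.91, 3.47 and 2.54 and C1qc levels of 2.71, 2.22, 2.90 and 1.95. All of them were lower on the diabetic and combination arrays than on the other pair, as was the Kupffer cell marker sum, at 5.98, 5.33, 5.66 and 5.02. The Kupffer markers were not uniform: 4 of 9 were lower on metformin than on diabetic, Cd163 (-1.86) and Marco (-1.41) by at least 2-fold. Their part in the C1q values was not tested. Between the treated arrays 11 of 18 other complement genes were lower on the combination array, Cfd (-3.77) and the anaphylatoxin receptor genes C3ar1 (-1.68) and C5ar1 (-1.24) by at least 2-fold. Of all genes 45.9% were lower, and 9.4% by at least 2-fold. Cfd was also lower on the combination than on the diabetic array (-1.49). Only 1 of its 2 probes was above background on the combination array, so both differences rest on that probe.

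Of 26 other coagulation genes 21 were measured between diabetic and control, with 18 lower, a median of -0.48 and 4 at least 2-fold lower. They included the urokinase receptor gene Plaur (-1.70), F8 (-1.67) and Serpina5 (-1.03). Of all measured genes 57.8% were lower, and 5.42% by at least 2-fold. On the metformin array Plau (1.57), F13a1 (1.45), Plaur (1.27), Procr (1.11) and F2r (1.01) were at least 2-fold higher than on diabetic, as were 9.46% of all genes. Plau and F13a1 rest on 1 of 2 probes each, and the Plau probe was dim on the diabetic array, at -4.03. Plat, the tissue plasminogen activator gene, was not well above background on the diabetic array and at least 5.70-fold higher on the metformin array, a bound set by the lowest detected signal of the diabetic array. None of the other coagulation genes measured was 2-fold apart between combination and diabetic, against 9.73% of all genes. F13a1 (-2.02), Plat (-1.93) and Procr (-1.18) were lower on combination than on metformin, where 9.4% of all genes were at least 2-fold lower. The stellate cell marker sum was higher on the control and metformin arrays than on the other pair, at 3.83, 2.58, 4.26 and 3.005, with 6 of 6 genes above background on each array. This was not particular to stellate cells. The lymphocyte sum, at 1.14, -0.47, 2.45 and 0.20 with 6 of 8 genes above background, and the endothelial sum, at 4.59, 3.98, 4.50 and 4.41, were so too. The platelet sum, at 1.44, 0.92, 2.45 and 2.18, was not. The part of these cells in the differences was not tested.

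Among transcription factor genes of the hepatocyte, Nr1i3, a xenobiotic receptor, was 1.01 higher on combination than on diabetic. Of 12 acute phase genes, the 9 measured were lower on diabetic than on control, where 57.8% of all genes and 87.7% of those at a level of 3 or more were. With outlier spots kept 11 of 12 were lower and Saa3 was higher, at 0.29. Saa3 was lower on combination than on diabetic (-1.60) and metformin (-1.36).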

How the data were processed

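Whole liver RNA was labelled with Cy5 for Agilent 1-colour mouse arrays, 1 array a group, per the labels' protocols. Deposited spot intensities came from Feature Extraction 11.5.1.1 per the file headers, whose grid is of the mm9 build. Agilent Feature Extraction 10.7 is the version in the submitters' processing notes. The values taken were intensity values the processed signal, already background-corrected by that software. The authors' value table, deposited as log2 values, correlated with the log2 processed signal at 0.99895 to 0.99995 within each array. Its values thus run in the same direction, but such a correlation does not show how the arrays were scaled to each other. Every column has a median of 7.84, and the labels name no normalization method. The 4 arrays share 1 slide and 1 scan time.

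Each array's log2 processed signal was set relative to its own 75th percentile of non-control probes, at signals of 1897, 2187, 2586 and 2410 for control, diabetic, metformin and combination. Spots marked non-uniform or population outliers counted toward that percentile and were left out of gene values. They were 3.31%, 4.66%, 5.35% and 2.18% of 59305 spots in that order, and no spot was saturated. A probe was above background where at least 50% of its spots were so marked by the software. Differences were averaged over a gene's probes above background on both arrays. The files give transcript identifiers, and 33767 of 56605 probes took a symbol from RefSeq's table for GRCm38.p6, whose gene coordinates are not printed because the grid's build differs. With 1 array a group there is no test and no p-value, and differences of at least 2-fold (1 in log2) were counted beside the share of all genes. The number of arrays limits the precision.

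Members and lists were chosen with earlier results of these data known. Levels on all 4 arrays are printed for members that differ by at least 1 in log2 between any pair of arrays or are among the 3 highest or lowest of a main comparison, and for C8a and F11, Masp2's separate transcript and side genes that were chosen after their values were seen. Side genes at least 2-fold apart are named, except some that are not reported here. The script was tested on simulated data. Alternatives were other scalings, background correction, filters, outlier handling and the authors' table. Python 3.11.15 with pandas 2.3.3 and R 4.3.3 with limma 3.58.1 were used.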

Additional observations from a re-analysis of the deposited data

How the results depend on the processing

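The medians below are those of complement and coagulation minus the median of all genes, which on the processing used above were -0.39 and -0.33 for diabetic minus control, -0.17 and -0.12 for metformin minus diabetic, -0.03 and 0.02 for combination minus diabetic and 0.08 and 0.19 for combination minus metformin. Of 156 values of these medians and of the counts of members 2-fold apart, 118 stayed within their margins under the alternatives. Of the 104 medians among them 15 had the opposite sign. By comparison these were 0 for diabetic minus control, 2 for metformin minus diabetic, 5 for combination minus diabetic and 8 for combination minus metformin. Alternatives that only shift a whole array by a constant, such as spike-in and median scaling, cancel in these medians. They repeated -0.39 and -0.33 for diabetic minus control by construction. Their medians are counted in the 118 and the 104 but could not move or change sign, so they do not show stability. The authors' table and quantile normalization gave nearly the same values for the members, and both placed 34 of the 48 probes highest on control. This pair is counted as separate alternatives, but the results are not separate evidence. With quantile normalization diabetic minus control was -0.18 and -0.11, with the authors' value table -0.19 and -0.12, with normexp on the median signal -0.14 and -0.083, with cyclic loess -0.24 and -0.17, and against genes at the same level -0.22 and -0.13. Metformin minus diabetic was -0.030 and 0.00337 with quantile normalization, -0.026 and 0.00687 with the authors' table and -0.030 and -0.0030 against genes at the same level, and for complement -0.018 with normexp and -0.072 with cyclic loess. Combination minus diabetic was -0.15 and -0.077 with quantile normalization, -0.12 for complement with the authors' table, -0.099 for coagulation with normexp, and 0.073 and 0.12 without the filter on dim probes. Combination minus metformin was -0.16 and -0.024 with quantile normalization, -0.16 and -0.021 with the authors' table, -0.20 and -0.012 with normexp, -0.050 and 0.095 with cyclic loess and -0.14 and 0.0087 against genes at the same level. The cause of these changes was not tested. The count of members 2-fold apart between diabetic and control, 4, was 2 with spike-in scaling, with normexp and with the brightest probe of each gene, and 1 when probes had to be unmarked and above background on all 4 arrays, a stricter filter by construction. With outlier spots kept it was 6, C8a and F11 being added. In the other 3 comparisons that count was unchanged under every alternative. Fga ran from -1.33 to -0.76 for diabetic minus control, C8b from -1.17 to -0.93 and Masp1 from -1.60 to -0.80.

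Scaling moved the share of lower genes among all genes 2-fold apart. For diabetic minus control it was 46.1%, and 27.4% with spike-in scaling. For metformin minus diabetic it was 25.5%, 7.75% with spike-in scaling and 40.2% with median scaling. For combination minus metformin it was 81.2%, 95.3% with spike-in scaling and 68.0% with median scaling. Cyclic loess, the running median and normexp on the median signal were chosen after seeing the data, the last because normexp on the mean signal was not run: the files used here hold no mean signal. No paired analysis was possible because each group has 1 array. Leaving out a replicate was not possible for the same reason, and the 17 outlier-marked spots limit what can be said of C8a, F11 and F13b.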
